A study of Mus musculus with 10 samples.

Results

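Expression of 26 listed genes of cholesterol synthesis and its control was read in the tissue around the developing inner ear of mouse embryos, and 25 of them were found among the 19938 genes measured. The genes were taken by symbol, and where a gene had more than 1 probe set the probe set with the highest mean signal was used. Acat2, at the entry to the pathway, was not analysed here. The 25 genes are 8 enzymes of the early steps, from acetyl-CoA to squalene with its isoprenoid branch, 10 enzymes of the late steps, from squalene to cholesterol, and 7 regulators and transport genes. The pathway was selected on the mutant minus control log2 differences of its genes on these arrays, so those differences are given as a description and no test of them is offered for the list.

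Cholesterol is built from acetyl-CoA in a chain of enzymes that first makes mevalonate and isoprenoid units, then joins these to squalene, and then folds and trims squalene through lanosterol to cholesterol. The chain is held at the level of transcription by SREBP proteins, which the escort protein Scap carries out of the endoplasmic reticulum when sterols are low and which Insig proteins hold back when sterols are plentiful. In embryos cholesterol supplies growing membranes and modifies hedgehog ligands, and loss of several of its enzymes causes malformation syndromes in mice and people.

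The 10 samples are periotic tissue, meaning the otic vesicle with the mesenchyme around it, dissected on embryonic day 12.5 and read on Affymetrix Mouse Gene ST arrays, 1 embryo an array, with 5 mutants and 5 controls. The mutants were T-Cre conditional Tbx1 knockouts, in which the recombinase is driven in the early mesoderm and Tbx1, a T-box transcription factor, is removed there. The controls were T-Cre conditional Tbx1 heterozygotes, so that T-Cre is present in all 10 embryos, the controls also carry a lowered Tbx1 dose, and the otic epithelium is not the target of the deletion. Left and right tissue of each embryo was pooled. By their sex-linked transcripts, 1 mutant and 2 controls were male.

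Tbx1 read a log2 signal of 7.83 ± 0.36 in mutants and 8.71 ± 0.31 in controls (SD, n = 5 each), and limma gave an adjusted p of 0.451. Background, taken from 3 Y-linked genes in the 7 female embryos, spanned 3.12 to 4.36 on the log2 scale, and the 25 genes read 7.40 to 11.31, all above it. Markers of the labelled cells and of others were read. All 10 otic epithelium markers and all 8 periotic mesenchyme markers had means above that background, as did all 10 neuron, 8 skeletal myoblast, 8 cartilage and 7 endothelium markers. Of all 19938 genes, 15551 had a mean log2 signal of at least 5. Passing this background therefore does not show which cells were present. In tissue of mixed cells, fewer cells of a type and less RNA per cell cannot be told apart. Signals of different genes come from different probes and are not ranked against each other.

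SREBP is known to bind a sterol regulatory element near its target genes together with partners such as NF-Y and Sp1. The stretches just before the start site of 6 genes are shown as examples. Hmgcs1, Srebf2 and Msmo1 hold the sterol element, Nsdhl and Idi1 the NF-Y box without it, and Abca1, like Scap, neither. Most of the genes searched hold the NF-Y box. Nsdhl and Idi1 had the largest mutant minus control differences of the 25 genes. A link between these letters and the differences was not tested. RefSeq windows of GRCm38.p6, reaching 250 bases before the start, were on hand for 21 of the 25 genes. The sterol regulatory element was searched as TCACNCCA and the NF-Y box as CCAAT, on both strands. Hmgcs1, Srebf2 and Msmo1 held the sterol element, at 137, 162 and 177 bases before the start, or 14.3% of the 21 genes, against 4.2% of 27025 genes and 4.0% of the 15013 measured protein-coding genes with such a window. The CCAAT letters stood in 19 of the 21 (90.5%), against 37.5% of all genes and 39.0% of measured protein-coding genes. Scap and Abca1 were the pair without them. The GC box GGGCGG, the letters read by Sp1, stood in 19 of the 21, against 35.4% of all genes and 50% of measured protein-coding genes. Genes with several start sites have more than 1 window and so more chances of a match, and a match is a run of letters, not a shown binding site. The 200 bases before the start, read 5′ to 3′ along the gene, are at chr13:119690151-119690350 (plus strand) for Hmgcs1, chr15:82147069-82147268 (plus) for Srebf2, chr8:64733579-64733778 (minus) for Msmo1, chrX:72918321-72918520 (plus) for Nsdhl, chr13:8885406-8885605 (plus) for Idi1 and chr4:53159896-53160095 (minus) for Abca1. Capitals mark the sterol element and the CCAAT letters, which read ATTGG where they lie on the other strand, and the Abca1 window has neither.
Hmgcs1: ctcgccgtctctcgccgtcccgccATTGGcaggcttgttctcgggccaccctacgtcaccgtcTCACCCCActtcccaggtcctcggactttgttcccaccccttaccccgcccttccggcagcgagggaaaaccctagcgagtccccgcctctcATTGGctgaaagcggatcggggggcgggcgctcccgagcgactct
Srebf2: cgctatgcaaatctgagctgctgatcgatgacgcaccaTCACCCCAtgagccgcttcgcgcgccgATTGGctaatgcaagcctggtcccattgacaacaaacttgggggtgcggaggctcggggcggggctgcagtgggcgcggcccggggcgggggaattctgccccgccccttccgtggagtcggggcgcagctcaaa
Msmo1: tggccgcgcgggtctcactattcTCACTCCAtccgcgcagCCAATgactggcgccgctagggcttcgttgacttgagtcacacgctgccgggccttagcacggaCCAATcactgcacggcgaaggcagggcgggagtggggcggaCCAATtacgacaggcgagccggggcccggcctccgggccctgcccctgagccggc
Nsdhl: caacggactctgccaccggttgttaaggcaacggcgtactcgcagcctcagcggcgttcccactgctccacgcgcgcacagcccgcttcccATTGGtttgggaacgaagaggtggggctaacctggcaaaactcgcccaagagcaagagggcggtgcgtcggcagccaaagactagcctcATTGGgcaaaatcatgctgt
Idi1: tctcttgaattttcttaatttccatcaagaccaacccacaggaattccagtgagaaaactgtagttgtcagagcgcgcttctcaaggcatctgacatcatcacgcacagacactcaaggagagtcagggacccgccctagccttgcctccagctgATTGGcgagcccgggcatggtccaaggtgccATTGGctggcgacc
Abca1: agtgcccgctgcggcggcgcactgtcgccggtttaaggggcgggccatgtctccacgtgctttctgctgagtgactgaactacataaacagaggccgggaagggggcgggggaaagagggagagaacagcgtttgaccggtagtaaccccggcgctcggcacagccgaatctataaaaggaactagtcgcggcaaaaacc

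The comparison of mutants with controls asks how loss of Tbx1 from the mesoderm changes expression in the ear region. Most enzymes of cholesterol synthesis read slightly higher in the mutants. Of the 7 regulators and transport genes 4 read lower, near the share of all genes, where 10144 of 19938 were lower. Of the 18 enzymes 13 had a higher mean in the mutants, with log2 differences of 0.12 to 0.36, and 5 had a lower one, with differences no larger in size than 0.08. The median log2 difference was 0.17 over the 8 early enzymes, 0.18 over the 10 late enzymes and -0.08 over the 7 regulators and transport genes, beside -0.0021 over all 19938 genes. Over the 25 genes it was 0.12, with 16 higher, or 64.0%, where 49.1% of all genes were higher. In all 25 genes the mutant and control arrays overlapped, while 1.83% of all genes had groups without overlap. None of the 25 passed limma's adjusted threshold of 0.05, which 0.0100% of all genes, or 2 genes, passed, and the adjusted p-values of the 25 lay between 0.569 and 0.970. At an unadjusted limma p under 0.05 there were 9 higher and 1 lower of the 25, beside 4.70% of all genes higher and 3.11% lower. With the replicate number as a block, 13 of the 25 had such a p, beside 9.74% of all genes, and again none passed the adjusted threshold. Since this contrast was in view when the list was made, nothing is read from these counts.

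**Figure D1:**
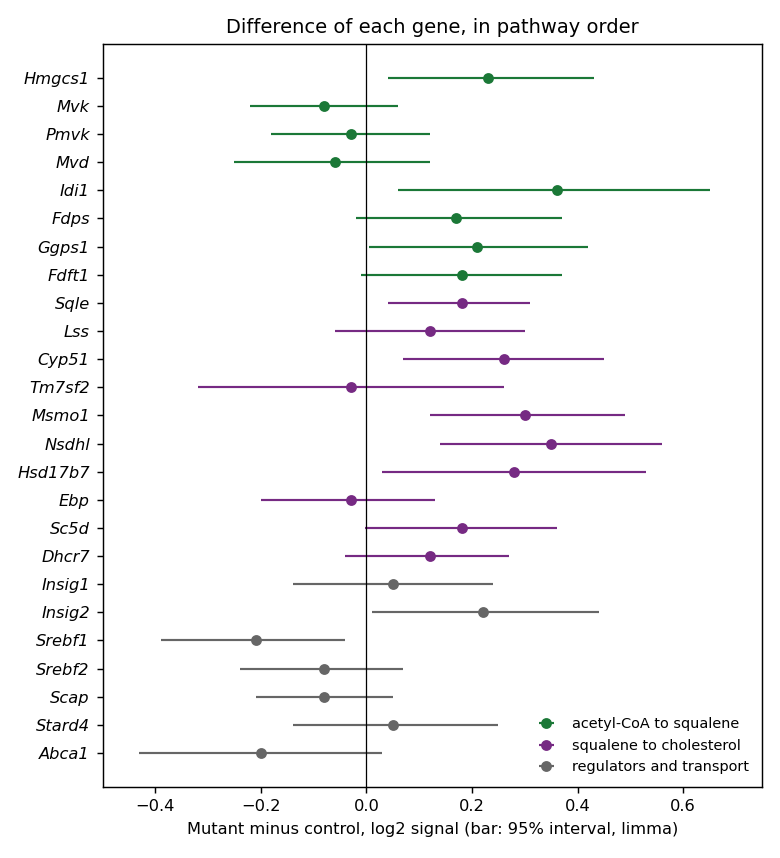
Mutant minus control difference in log2 signal of each of the 25 genes (points, limma estimates from 5 mutant and 5 control arrays) with its 95% interval (bars), in pathway order from top to bottom, coloured by role. The enzymes lie mostly to the right of 0, up to 0.36 for Idi1, while Srebf1 (-0.21) and Abca1 (-0.20) lie to the left.

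Among the 8 early enzymes 5 had a higher mean in the mutants, and 3, namely Mvk, Pmvk and Mvd, a slightly lower one. On the arrays numbered 1 to 3 alone all 8 had a higher mean. Differences between the enzymes were not tested. Hmgcs1, which makes HMG-CoA, read 10.55, 10.53, 10.72, 10.48 and 10.95 log2 units in mutants 1 to 5 and 10.29, 10.28, 10.54, 10.52 and 10.44 in controls 1 to 5. In 3 mutants it lay above the highest control, and mutants 2 and 4 lay among the controls. Hmgcs1 had a log2 difference of 0.23 ± 0.09 (SE).

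Idi1, the isomerase that readies isopentenyl units for joining, read 9.63, 9.69, 9.97, 9.64 and 10.07 in mutants 1 to 5 and 9.45, 9.01, 9.85, 9.35 and 9.55 in controls 1 to 5. All 5 mutants were above the control mean of 9.44, but control 3 was above 3 of the mutants, so the groups overlapped. The log2 difference of 0.36 (standard error 0.14) was the largest of the 25, and a further Idi1 probe set gave 0.36 as well. Such a pair of probe sets lists the same transcripts and may read near-identical copies of the gene, so they are not independent.

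Mvk and Pmvk, the kinases that phosphorylate mevalonate in turn, and Mvd, the decarboxylase after them, had differences within 2 standard errors of 0. Mvk had a log2 difference of -0.08, Pmvk of -0.03 and Mvd of -0.06, with standard errors of 0.06, 0.07 and 0.09. Mvd was nearly constant in the controls, at 8.65 to 8.68, and spread from 8.33 to 8.85 in the mutants, with 2 mutants above and 3 below all controls. Its control SD was 0.01 and its mutant SD 0.20.

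Fdps, which makes farnesyl pyrophosphate, averaged 9.92 ± 0.21 in mutants and 9.75 ± 0.08 in controls (SD, n = 5 each). Mutants 1, 2 and 3 read 10.14, 9.98 and 10.07, above every control, while mutants 4 and 5 read 9.68 and 9.72, among the controls. Ggps1, which extends the chain to geranylgeranyl pyrophosphate, had a log2 difference of 0.21 ± 0.10 (SE), and Fdft1, squalene synthase, one of 0.18 ± 0.09 (SE). Ggps1 had 2 mutants above every control and Fdft1 had 3, with overlapping groups for each. The other probe set of Fdft1 gave a log2 difference of 0.23.

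Of the 10 late enzymes 8 had a higher mean in the mutants. Nsdhl, a sterol dehydrogenase that takes part in removing methyl groups from lanosterol, read 9.31, 9.28, 9.30, 9.03 and 9.29 in mutants 1 to 5 and 9.19, 8.73, 9.04, 8.67 and 8.82 in controls 1 to 5. All mutants but mutant 4 were above every control, and all 5 were above the control mean. Its log2 difference of 0.35 ± 0.10 (SE) had a 95% interval of 0.14 to 0.56. Nsdhl lies on the X chromosome, and with the sex of the embryo as a term the log2 difference was 0.38.

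Msmo1, the methyl sterol oxidase that acts before Nsdhl, read 11.00, 11.04, 11.23, 10.98 and 11.31 in mutants 1 to 5 and 10.81, 10.56, 11.00, 10.77 and 10.91 in controls 1 to 5. Mutant 4 lay below the highest control, control 3, and mutant 1 was level with it to 2 decimals. Msmo1 had a log2 difference of 0.30 ± 0.09 (SE). Cyp51, the lanosterol demethylase, had a log2 difference of 0.26 ± 0.09 (SE), with 3 mutants above all controls. Hsd17b7, the sterol ketone reductase that works with Msmo1 and Nsdhl, had 0.28 ± 0.12 (SE), with 2 mutants above all controls.

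Sqle, squalene epoxidase, which commits squalene to sterols, varied least among the mutants, at 10.33, 10.38, 10.39, 10.25 and 10.42, against 10.13, 10.04, 10.31, 10.13 and 10.26 in the controls. It was above every control in 4 mutants, with a log2 difference of 0.18 ± 0.06 (SE). Sc5d, the sterol desaturase before the last reduction, had a log2 difference of 0.18 ± 0.08 (SE). The log2 difference was 0.12 for Lss, lanosterol synthase, and 0.12 for Dhcr7, whose loss in people causes Smith-Lemli-Opitz syndrome, and the 95% intervals of both included 0.

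Tm7sf2, a sterol reductase, and Ebp, a sterol isomerase encoded on the X chromosome, were the late enzymes without a higher mean. Each had a log2 difference of -0.03, with intervals of -0.32 to 0.26 for Tm7sf2 and -0.20 to 0.13 for Ebp. Tm7sf2 was lowest in mutant 4, at 7.49, and otherwise read 7.96 to 8.22 in the mutants, against 7.63 to 8.22 in the controls.

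**Figure D2:**
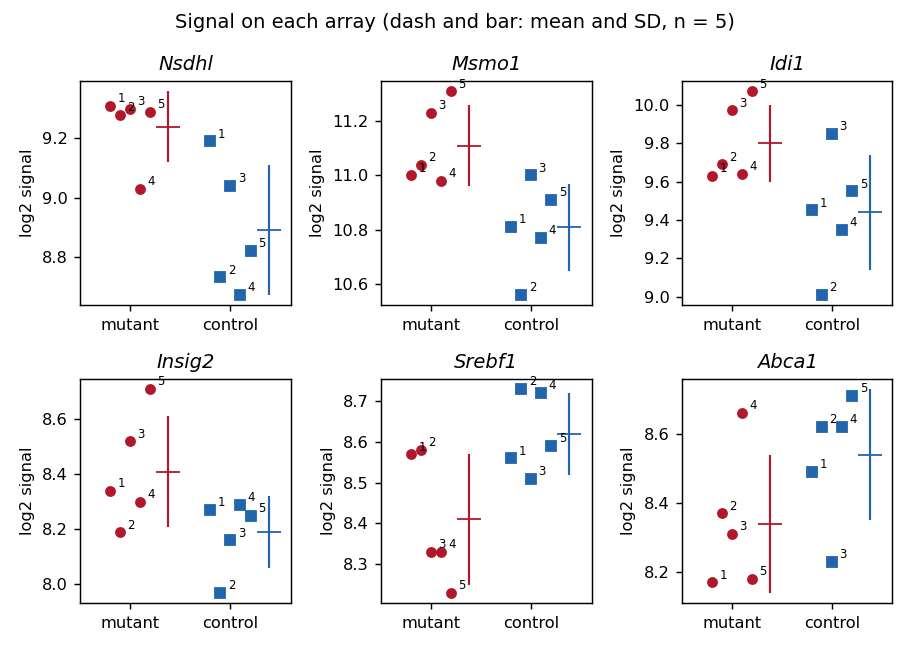
Log2 signal (vertical axes, each with its own range) of 6 genes on each array, with mutants (circles) left of controls (squares) and the embryo number beside each point. Dash and bar give the mean and SD of 5 arrays, mutant 4 is the lowest mutant for Nsdhl and Msmo1, and the groups overlap in every panel.

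Of the 7 regulators and transport genes 3 had a higher and 4 a lower mean in the mutants, beside 49.1% of all genes higher. Srebf1, which encodes the SREBP that acts most on fatty acid genes, read 8.57, 8.58, 8.33, 8.33 and 8.23 in mutants 1 to 5 and 8.56, 8.73, 8.51, 8.72 and 8.59 in controls 1 to 5. All mutants lay below the control mean of 8.62 and 3 lay below every control. It had a log2 difference of -0.21 ± 0.08 (SE), and as its gene is the source of more than 1 transcript form the probe set does not separate them.

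Srebf2, which encodes the SREBP most tied to cholesterol genes, had a log2 difference of -0.08 ± 0.07 (SE), and Scap, the escort, one of -0.08 ± 0.06 (SE). The 95% interval of Srebf2 was -0.24 to 0.07 and that of Scap -0.21 to 0.05. Of the mutants, 1 lay above the control mean for each of these genes.

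Insig2, of the proteins that hold SREBP back, read 8.34, 8.19, 8.52, 8.30 and 8.71 in mutants 1 to 5 and 8.27, 7.97, 8.16, 8.29 and 8.25 in controls 1 to 5, with 4 mutants above every control. Its log2 difference was 0.22 ± 0.10 (SE). Insig1, itself a target of SREBP, had a log2 difference of 0.05 with a 95% interval of -0.14 to 0.24. Mutant 5 stood alone above the other mutants for Insig1, at 10.24. The difference between the Insig genes was not tested.

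Abca1, which exports cholesterol and is a target of the oxysterol receptors of the LXR family, read 8.17, 8.37, 8.31, 8.66 and 8.18 in mutants 1 to 5 and 8.49, 8.62, 8.23, 8.62 and 8.71 in controls 1 to 5. It had a log2 difference of -0.20 ± 0.11 (SE), and 2 mutants lay below every control, with the others among the controls. Stard4, a carrier of cholesterol within the cell, had a log2 difference of 0.05 ± 0.09 (SE). Nr1h5, a nuclear receptor that binds lanosterol in the mouse, read 5.94, 5.80, 5.54, 5.61 and 5.30 in mutants 1 to 5 and 4.20, 3.84, 3.96, 3.88 and 3.82 in controls 1 to 5. All its control values lay within the background range. Its limma adjusted p was 4.57e-05, the lowest of all genes and 1 of the 2 under the threshold. Nr1h5 lies on chromosome 3 and is not among the 26 listed genes. Whether its difference has to do with sterols or with its place on the chromosome was not tested.

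The same arrays were low or high for many of the enzymes. The mean of the 18 enzymes, set against the control mean, was 0.20, 0.15, 0.23, -0.01 and 0.18 on the log2 scale in mutants 1 to 5 and 0.02, -0.12, 0.13, -0.07 and 0.03 in controls 1 to 5. Mutant 4 was the lowest mutant for 12 of the 18 enzymes, control 2 the lowest control for 10, and control 3 the highest control for 10. Mutant 4 thus read at the level of the controls, and control 3 near that of mutant 2.

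**Figure D3:**
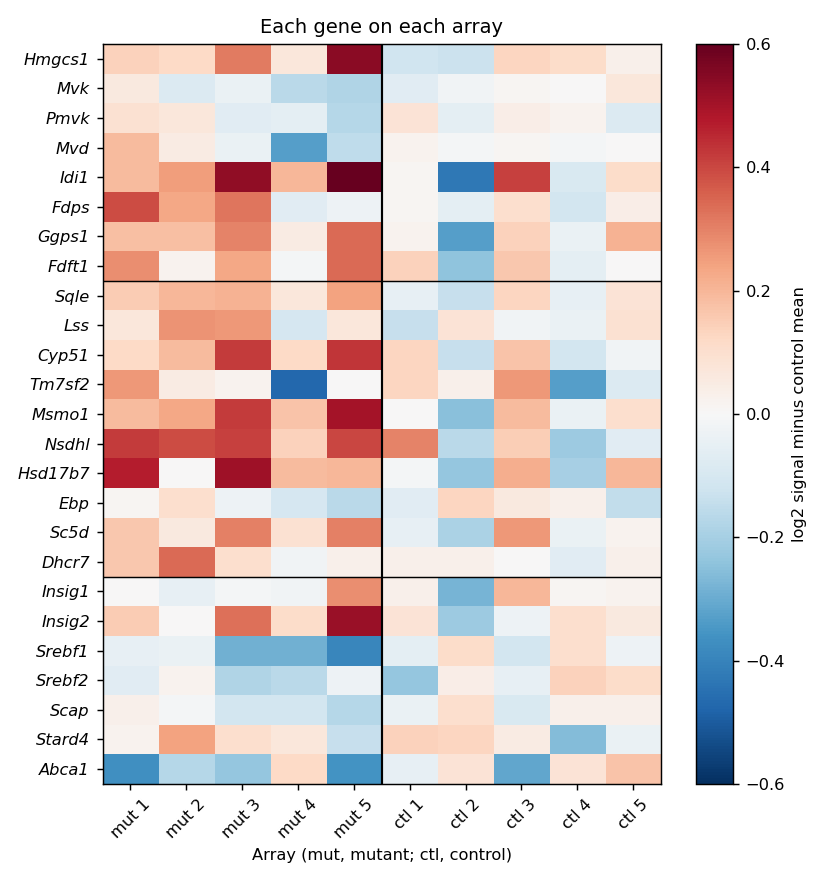
Log2 signal of the 25 genes (rows, in pathway order) on each of the 10 arrays (columns, 5 mutants then 5 controls) minus the control mean of the gene, with lines between early enzymes, late enzymes, and regulators with transport genes. Most enzyme rows are red in mutants 1, 2, 3 and 5, pale in mutant 4 and blue in control 2, with Idi1 at 10.07 in mutant 5 and 9.01 in control 2.

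Mutant 4 and control 2, low in the enzymes, were also low in neuron markers. Cartilage and skeletal myoblast markers varied between the arrays as well, and neuron markers were the only list put in a fit. All 10 of the 10 neuron markers were measured and all 10 had a higher mean in the mutants, with a median log2 difference of 0.37, 0 past limma's adjusted threshold and 3 at an unadjusted p under 0.05, which 4.70% of all genes reached in that direction. Their mean log2 level ran from 9.02 to 10.01 in mutants and from 8.52 to 9.53 in controls, and none was at background. Against the control mean it was 0.52, 0.26, 0.40, -0.09 and 0.90 in mutants 1 to 5 and -0.07, -0.59, 0.42, 0.03 and 0.20 in controls 1 to 5. Mutant 4 and control 2 were the lowest of their groups in both, control 3 was the highest control in both, whereas control 4 was low in the enzymes only. With the neuron marker mean of each array as a term in the limma fit, the median log2 difference of the 25 genes was 0.05 in place of 0.12, that of the 8 early enzymes 0.04 in place of 0.17, and that of the 10 late enzymes 0.12 in place of 0.18, with 9 of the 10 higher. Idi1 then had 0.12 ± 0.10 (SE) and Fdft1 0.03 ± 0.07 (SE), whereas Nsdhl had 0.26 ± 0.11 (SE) and Msmo1 0.16 ± 0.06 (SE). Without mutant 5 and control 2, which lay farthest apart in neuron markers, the median was 0.09 and Idi1 had 0.18. The neuron list was made with earlier results of these data known, so nothing is read from its counts. The part of neurons in the enzyme differences was not tested.

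**Figure D4:**
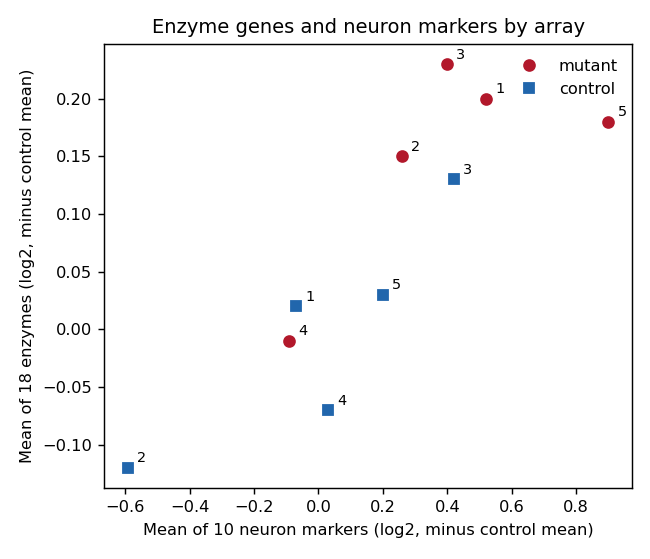
Mean of the 18 enzyme genes (vertical axis) against the mean of 10 neuron markers (horizontal axis) on each array, both as log2 signal minus the control mean, for mutants (circles) and controls (squares) with the embryo number beside each point. Control 2 lies lowest on both axes, at -0.12 and -0.59, and mutant 5 farthest to the right, at 0.90.

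Markers of cartilage, hypoxia and other cells and states are given as levels, and no fit had them as a term. These lists were made with earlier results of these data known, so nothing is read from their counts. All 8 cartilage markers had a lower mean in the mutants, with a median log2 difference of -0.46 and list means of 8.24 to 9.03 in mutants and 8.64 to 9.32 in controls. None passed limma's adjusted threshold and 5 had an unadjusted p under 0.05, beside 3.11% of all genes in that direction. All 10 hypoxia and glycolysis genes had a higher mean, with a median of 0.34, 0 past limma's adjusted threshold and 8 at an unadjusted p under 0.05, beside 4.70% of all genes. Their list means were 9.63 to 9.89 in mutants and 9.28 to 9.59 in controls. Ldha and Pgk1, enzymes of glycolysis, had log2 differences of 0.33 and 0.36. Against the control mean, the cartilage mean was -0.59, -0.24, -0.59, -0.02 and -0.81 in mutants 1 to 5 and 0.27, 0.17, -0.15, 0.12 and -0.41 in controls 1 to 5. The hypoxia mean was 0.44, 0.45, 0.32, 0.20 and 0.23 in mutants 1 to 5 and 0.16, 0.12, -0.03, -0.09 and -0.16 in controls 1 to 5. Every mutant had a higher hypoxia mean than every control, and the neuron means of the groups overlapped. The 7 measured proliferation markers had a median log2 difference of -0.01. The median was 0.13 for 8 hindbrain and neural tube markers, whose mean in mutant 5 was 1.46 above the control mean, and 0.12 for 7 endothelium markers. It was -0.20 for 8 skeletal myoblast, -0.22 for 6 red blood cell and -0.04 for 8 macrophage markers. Against the control mean, the skeletal myoblast mean was -0.16, -0.20, -0.36, 0.26 and -0.50 in mutants 1 to 5. In controls 1 to 5 it was 0.06, -0.03, -0.28, 0.33 and -0.08. Mutant 4 was the highest mutant in both cartilage and skeletal myoblast markers, and control 2 the highest control in neither. The median was -0.05 for the otic epithelium and -0.09 for the periotic mesenchyme markers. The part of these cells and states in the enzyme differences was not tested.

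In immediate early genes the arrays numbered 1 to 3 in the labels stood apart from those numbered 4 and 5 in both groups. The split was first seen in these genes, so their values describe it and are no separate support for it. What these numbers share is not stated. The mean of 6 immediate early genes against the control mean was 0.60 to 0.87 in mutants 1 to 3 and -1.35 to -1.09 in mutants 4 and 5, and 0.72 to 0.80 in controls 1 to 3 and -1.20 to -1.11 in controls 4 and 5. The mutant minus control contrast that chose the list is independent of this split. With group in the fit, 0 of the 25 genes passed limma's adjusted threshold between these classes, beside 0.191% of all genes. At an unadjusted p under 0.05 there were 3, or as large a share as the 12.0% of all genes. These were Tm7sf2, with a log2 difference of 0.35 ± 0.10 (SE) and an adjusted p of 0.199, Fdps with 0.21 ± 0.07 (SE) and Stard4 with 0.21 ± 0.08 (SE), all higher in numbers 1 to 3. The mutant minus control difference of Nsdhl was 0.31 in numbers 1 to 3 and 0.42 in numbers 4 and 5, and that of Msmo1 was 0.30 in each. Fdps differed by 0.30 in numbers 1 to 3 and by -0.01 in numbers 4 and 5, and Srebf1 by -0.11 and by -0.37. The median of the early enzymes was 0.20 in numbers 1 to 3 and 0.05 in numbers 4 and 5, and that of the late enzymes 0.20 and 0.17. Whether the classes differ in these values was not tested.

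In 6 lists of genes around the pathway the median log2 differences ran from -0.09 to 0.08. None of these lists had a member past limma's adjusted threshold, and at an unadjusted p under 0.05 there were 5 of the 72 genes, or 6.94%, beside 7.82% of all genes in either direction. Sec23a was higher, and Rxrb, Rxra, Rce1 and Coq2 were lower. Of 14 fatty acid synthesis genes under SREBP control 12 had a higher mean, with a median log2 difference of 0.08. Me1, malic enzyme, had 0.20 and Fads1, a fatty acid desaturase, 0.09. Of 17 genes of sterol uptake, storage and transfer 11 were higher, with a median of 0.04. Gramd1a, which moves sterol between membranes, had 0.20, and Lipa, the lysosomal lipase that frees cholesterol, 0.14.

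Of 11 genes of SREBP processing and degradation 7 were higher, with a median of 0.03. Sec23a, a coat protein of the vesicles that leave the endoplasmic reticulum, averaged 10.27 ± 0.08 in mutants and 10.14 ± 0.04 in controls (SD, n = 5 each). Its 5 mutants lay above all controls, at 10.21 against 10.19 where nearest. Groups without overlap were seen in 1.83% of all genes. Fbxw7, which marks SREBP for degradation, had a log2 difference of 0.15. Of 8 genes of sterol sensing and efflux 6 were lower, with a median of -0.09. Rxrb and Rxra, the partners of LXR and of other nuclear receptors, had -0.23 and -0.21, each with 3 mutants below all controls.

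The 13 genes that use isoprenoids split into 7 higher and 6 lower, with a median log2 difference of 0.03. Rce1, a protease of prenylated proteins, had -0.19, and Coq2, an enzyme of coenzyme Q synthesis, -0.16. The 9 genes of sterol oxidation and partner enzymes had a median of -0.01. Cyp39a1, an oxysterol hydroxylase, had 0.16, and Hsd3b7, an enzyme of bile acid synthesis, -0.14. The limma adjusted p-values of the genes named from these 6 lists were 0.575 or higher.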

How the data were processed

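The deposited values are log2 signals per probe set. The authors computed them by RMA with Affymetrix Expression Console 1.1, as recorded in the submitters' processing notes. RMA evens out the arrays before it sums the probes of a set, which limits what the values show of an overall change in RNA. The array medians still ran from 6.19 to 6.27, and further quantile normalization gave a median difference over the 25 genes of 0.09, and centring on the medians 0.10, in place of 0.12. The sources used here give no build for the probe sets. Arrays have no read depth, and their number limits the precision.

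The platform annotation gave 1 symbol for 21789 of the 35557 probe sets, several for 1621 and none for 12147. RefSeq names (GRCm38.p6) were found for 21698. limma 3.58.1 in R 4.3.3 (lmFit, eBayes with trend, two-sided) was run on the 21789, with Benjamini-Hochberg adjustment over all and a threshold of 0.05. Counts are of 19938 genes. The scripts were checked on simulated counterparts of the arrays. The members and lists were chosen with earlier results of these data known. All 25 genes are named, and of each further pathway list any member past the threshold, or otherwise the 2 of smallest p.

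Same-numbered mutants and controls deviated together from their group means, at correlations of 0.122 to 0.247 in the 5 pairs. This met the criterion for pairing. However, differently numbered arrays correlated at -0.392 to 0.382, and only 2 of the 5 mutants correlated best with the control of the same number. The labels do not say that embryos of the same number belong together. The fit reported has no block, and the block is an alternative.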

Additional observations from a re-analysis of the deposited data

Results flagged for a closer look

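Of 58 groups of 5 values examined, Dixon's criterion marked 3, where chance alone gives about 2.9. Nsdhl read 9.03 in mutant 4, with the next mutant at 9.28. The mean of all 25 genes in mutant 4 was -0.02 against the control mean on the log2 scale, with the next mutant at 0.11. Insig1 read 10.24 in mutant 5, with the next mutant at 9.96.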

How the results depend on the processing

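Of the 25 genes, 15 kept the sign of their difference under all 24 alternatives run and 10 changed it in at least 1, namely Mvk, Pmvk, Mvd, Fdps, Lss, Tm7sf2, Ebp, Insig1, Srebf2 and Stard4. None passed the adjusted threshold in any fit, the lowest limma adjusted p being 0.317, with the replicate number as a block. Leaving out 1 array at a time, the median log2 difference was 0.08 to 0.17 for the 25 genes, 0.12 to 0.23 for the early enzymes, 0.14 to 0.23 for the late enzymes and -0.10 to -0.05 for the regulators and transport genes. In only numbers 4 and 5 the early median was 0.05 and the regulator median -0.17, and in only numbers 1 to 3 the regulator median was -0.00034. With the neuron marker mean as a term, an alternative added after the data were seen, the early median was 0.04 and the late median 0.12. The cause was not tested.

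The number of the 25 genes at an unadjusted limma p under 0.05 was 10 as reported, beside 7.82% of all genes. It was 4 without control 2 (5.35% of all genes), 5 without mutant 3 (6.8%) and 15 without mutant 4 (7.79%). It was 4 in only numbers 4 and 5 (4.05%), 3 without mutant 5 and control 2 (5.86%) and 2 with the neuron term (5.23%). The 2 genes called among all genes remained 2, the same genes, with the replicate block, and that block changed no call. They were 1 in only numbers 1 to 3, 0 in only numbers 4 and 5, and 0 among the 15551 genes with a mean log2 signal of at least 5. The 38 genes called between the number classes were 61 with array weights and 15 to 118 when 1 array was left out, lowest without control 4 and highest without mutant 4.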
